A study of Mus musculus with 56 samples.

Results

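The 6 genes followed here in mouse heart under inverted feeding encode inhibitors of mTORC1, namely Sesn1, Sesn2, Sesn3, Ddit4, Ddit4l and Deptor. They were taken by symbol, 6 of the 22864 genes listed, and all 6 passed the filter of a mean of at least 1 TPM (transcript abundance per exon length, scaled to the library), as 13893 genes did. Hearts came from adult female C57BL/6J mice aged 9 weeks, housed in a 12 h:12 h light-dark cycle. For 7 days food was given either by day (DRF, daytime-restricted feeding) or by night (NRF, nighttime-restricted feeding), and NRF is the reference because mice eat mostly at night. Both groups were of one wild-type strain with no transgene, were housed under the same specific-pathogen-free conditions, and had normal chow ad libitum before the regimens began. PolyA RNA was sequenced every 4 h from ZT0 to ZT24 (zeitgeber time, in which ZT0 is lights on), at 7 times, with 4 replicates in each of 14 groups, 56 libraries in all. The labels do not say whether the replicates were separate animals, so p-values measure the spread between these samples.

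mTORC1 is the protein kinase complex that couples amino acids, insulin and energy supply to protein synthesis and holds back autophagy. Sestrins, the products of the Sesn genes, bind and restrain the GATOR2 complex, some of them when leucine is scarce, and so keep mTORC1 off the lysosome. Ddit4 (REDD1) and its paralog Ddit4l (REDD2) act on the branch that runs through the TSC complex and Rheb, and are induced by stresses such as hypoxia, glucocorticoids and energy shortage. Deptor binds the mTOR kinase itself. The levels described here are of transcripts, and neither protein nor kinase activity was measured.

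The genes lie at 6 loci on GRCm38 (GENCODE M21). Sesn1 (ENSMUSG00000038332) lies on chromosome 10 from 41809935 to 41908424, plus strand, and Ddit4 (ENSMUSG00000020108) on the same chromosome from 59949669 to 59951834, minus strand. Sesn2 (ENSMUSG00000028893) lies on chromosome 4 from 132492032 to 132510501, minus strand, Sesn3 (ENSMUSG00000032009) on chromosome 9 from 14275067 to 14333101, plus strand, Ddit4l (ENSMUSG00000046818) on chromosome 3 from 137621612 to 137628333, plus strand, and Deptor (ENSMUSG00000022419) on chromosome 15 from 55112317 to 55259271, plus strand. Deptor shares 303 exonic bases with Gm9920 on the opposite strand. The library kit does not mark strand, so reads of that stretch cannot be told apart. The other 5 genes share no exonic base with a neighbour.

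Promoter windows of 250 bases before to 50 after a RefSeq start (GRCm38.p6) were matched by symbol for 5 of the 6 genes. Sesn1 has 2 such windows. The windows of Sesn1, Ddit4 and Ddit4l are shown because they hold the matches of the motif search. Capitals mark a match, and each window reads 5′ to 3′ on the strand of its gene.
Sesn1, upstream start (chr10:41810324-41810623, plus strand): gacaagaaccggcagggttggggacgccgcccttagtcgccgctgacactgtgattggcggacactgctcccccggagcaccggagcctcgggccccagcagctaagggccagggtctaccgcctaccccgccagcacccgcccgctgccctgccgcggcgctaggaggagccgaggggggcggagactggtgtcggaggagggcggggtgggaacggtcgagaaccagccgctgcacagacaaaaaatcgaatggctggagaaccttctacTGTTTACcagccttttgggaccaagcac
Sesn1, downstream start (chr10:41887189-41887488, plus strand): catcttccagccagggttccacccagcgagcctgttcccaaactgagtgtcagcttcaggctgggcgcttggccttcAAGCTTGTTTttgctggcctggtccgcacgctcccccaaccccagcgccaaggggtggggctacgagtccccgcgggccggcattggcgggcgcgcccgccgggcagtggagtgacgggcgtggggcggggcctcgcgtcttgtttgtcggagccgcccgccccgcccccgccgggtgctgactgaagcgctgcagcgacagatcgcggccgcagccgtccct
Ddit4 (chr10:59951721-59952020, minus strand): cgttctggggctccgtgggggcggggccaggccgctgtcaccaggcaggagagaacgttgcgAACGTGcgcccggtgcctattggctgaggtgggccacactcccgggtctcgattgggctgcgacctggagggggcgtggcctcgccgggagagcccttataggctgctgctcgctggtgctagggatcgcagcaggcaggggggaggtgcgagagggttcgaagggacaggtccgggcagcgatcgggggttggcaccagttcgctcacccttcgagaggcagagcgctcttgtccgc
Ddit4l (chr3:137623422-137623721, plus strand): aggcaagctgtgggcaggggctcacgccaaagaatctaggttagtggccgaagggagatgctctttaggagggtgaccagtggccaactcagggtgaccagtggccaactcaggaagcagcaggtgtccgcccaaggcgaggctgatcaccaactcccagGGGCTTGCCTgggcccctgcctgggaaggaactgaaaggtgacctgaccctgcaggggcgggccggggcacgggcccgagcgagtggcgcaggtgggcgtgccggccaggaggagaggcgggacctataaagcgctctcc

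The search covered both strands for motifs of clock, fasting and stress factors. The FoxO element GTAAACA was found, on the opposite strand and 23 bases into the transcript, in the upstream window of Sesn1, against 3.65% of all 32851 promoter windows. The E′-box CACGTT, which CLOCK and BMAL1 can bind, was found on the opposite strand in the Ddit4 window, 188 bases before the start, against 4.68% of all windows. A p53 half-site was found 173 bases before the downstream start of Sesn1 and 90 bases before the start of Ddit4l, against 8.36% of all windows. The letters of the E-box CACGTG (7.15% of all windows), the D-box TTATGNAA (3.38%), the ROR element core TAGGTCA (2.61%), the ATF4 element TGATGNAAT (0.965%) and the glucocorticoid receptor half-site AGAACA (19%) are in none of the 6 windows. No matches overlapped. A match describes letters in a window and is not a measured binding site.

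On the TPM scale, which is per exon length, Ddit4 and Sesn1 were the abundant members, at means of 84.2 and 73.8 TPM over the 56 libraries. Deptor was at 5.97, Sesn3 at 4.85, Sesn2 at 3.54 and Ddit4l at 1.94 TPM. The ranges over libraries of neighbours in this order overlapped in all pairs but Sesn1 and Deptor, whose lowest and highest libraries were 50.9 and 8.25 TPM. Ddit4 also varied most. Its libraries ran from 28.6 to 192 TPM, and the median coefficient of variation within its groups was 26.9%, against 10.2% for Sesn1. Ddit4l rested on the fewest reads, 51 to 147 per library, while Sesn1 had 2781 to 11957.

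**Figure D1:**
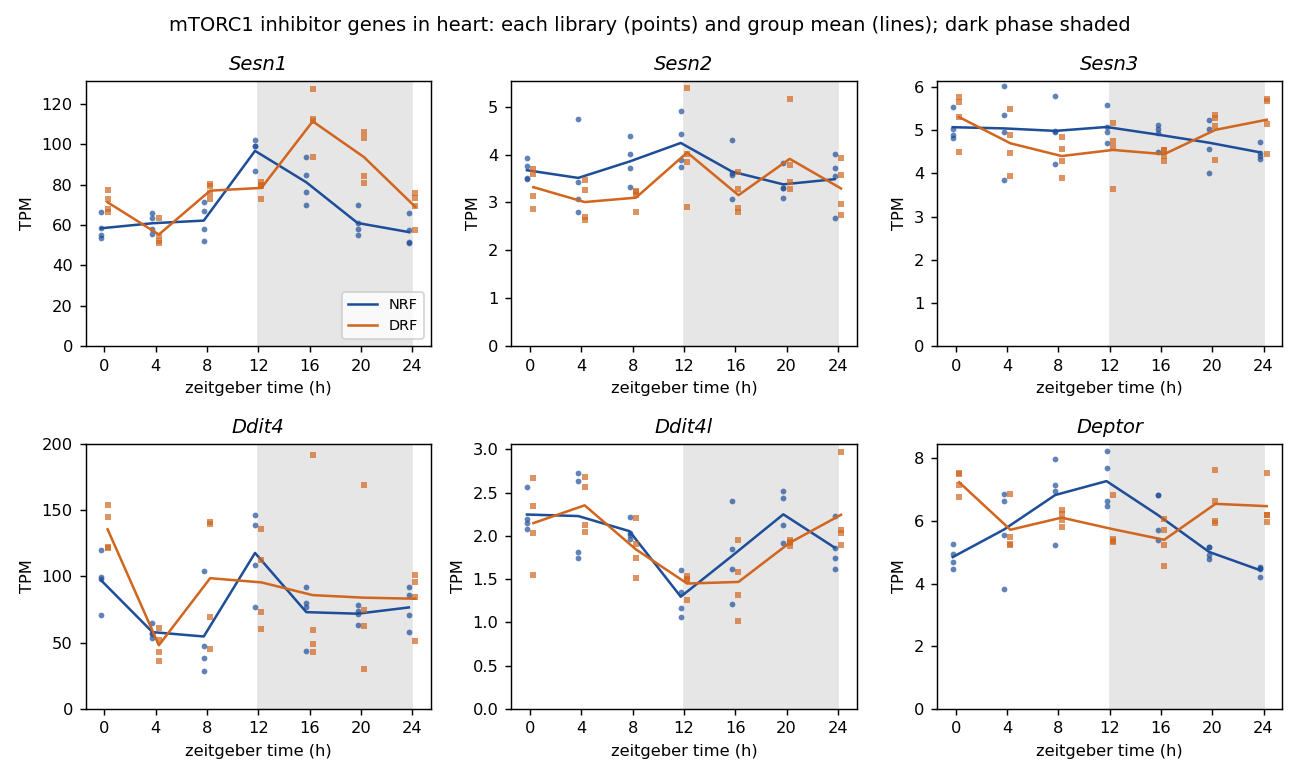
TPM (vertical axis, from 0) of the 6 genes against zeitgeber time in hours, with each library as a point (circles NRF, squares DRF) and group means as lines, n = 4 per group. Sesn1 peaks at ZT12 under NRF and ZT16 under DRF, Deptor is highest at ZT12 under NRF and at ZT0 under DRF, Ddit4l falls at ZT12 under both, and Ddit4 scatters widely within groups.

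Libraries held 29.3 to 53 M recovered reads (median 37.4 M). All 5 cardiomyocyte markers were detected in every library, with a summed level of 19499 to 32289 TPM. Blood markers summed to 1683 to 67337 TPM and atrial markers to 95.0 to 5486 TPM over the libraries, with atrial medians of 609 under NRF and 1803 TPM under DRF, and of 5 skeletal muscle markers Myh4, Myh2 and Myh1 were not among the genes listed. In mean level 4 of 5 endothelial, 2 of 5 fibroblast, 2 of 5 macrophage, 1 of 5 smooth muscle and 1 skeletal muscle marker were lower under DRF, 1 of 5 atrial markers was higher, 1 of 5 cardiomyocyte markers was higher and 1 lower, and 0 adipocyte and blood markers were called by limma, where 3621 of the 13893 genes tested were lower and 399 higher. The part of these cell types in the results below was not tested, and in bulk tissue fewer cells of a type and less RNA per cell cannot be told apart. Mitochondrially encoded genes took a median of 20.4% of reads under NRF and 22.1% under DRF. The 4 libraries farthest from their group mean over all genes were DRF ZT4 replicates 1 and 2, DRF ZT20 replicate 2 and NRF ZT8 replicate 1.

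The first question was which of the genes were rhythmic under each regimen. Under NRF 3 of the 6 were rhythmic, Sesn1, Ddit4l and Deptor, in an F test from limma of a harmonic with a period of 24 h, on log2(TPM + 1) with a Benjamini-Hochberg adjusted p under 0.05, where 37.2% of all genes tested were. Under DRF 3 of the 6 were rhythmic, Sesn1, Sesn3 and Ddit4l, against a background of 32.2%. Sesn1 and Ddit4l were dual-oscillating, that is, rhythmic under both regimens, as were 17.5% of all genes tested. The rhythm differed between regimens by clock time in Sesn1, Sesn3 and Deptor (3 of 6, background 27.5%). When each library was placed by food time instead, that is, by the hours since the start of its phase with food, the rhythm differed in Sesn1, Ddit4l and Deptor (3 of 6, background 41.3%).

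Sesn1 peaked in the dark phase under both regimens and later under DRF. Under NRF its 4 libraries at ZT12 were at 86.7, 99.0, 99.2 and 102 TPM, above the 24 libraries of all other times except 1 at ZT16 (84.7, 93.5, 76.3 and 70.1 TPM). At ZT0 they were at 66.2, 55.2, 53.7 and 58.4 TPM and at ZT24 at 65.8, 57.5, 50.9 and 51.8 TPM, and these groups and those at ZT4, ZT8 and ZT20 overlapped one another. Under DRF the highest groups were ZT16 (127, 113, 111 and 93.9 TPM) and ZT20 (106, 81.0, 103 and 84.0 TPM), and the lowest was ZT4 (63.2, 52.1, 54.5 and 51.3 TPM). The ZT12 libraries under DRF, at 81.1, 79.8, 73.1 and 79.6 TPM, all lay below those of ZT12 under NRF.

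The harmonic placed the Sesn1 peak at ZT13.3 (SE 0.606 h) under NRF and ZT16.3 (SE 0.422 h) under DRF, with log2 amplitudes of 0.32 (SE 0.05, adjusted p = 1.91e-05) and 0.40 (SE 0.05, adjusted p = 2.16e-06). The shift was 2.97 h later under DRF (95% interval 1.53 to 4.42 h), within the 0 to 4 h that the study's classes call phase locked, although the interval crossed that limit. The amplitudes differed by 0.08 (95% interval -0.05 to 0.21). The rhythm differed by clock time (adjusted p = 0.00606), a call that was not made without ZT20 (adjusted p = 0.126) or without replicate 3 of every group (adjusted p = 0.113), and by food time (adjusted p = 8.74e-11). Without ZT12 the shift was 1.60 h and without ZT8 it was 5.24 h. The F test with a separate level for each ZT, which assumes no cosine shape, gave adjusted p = 2.81e-05 for the difference by clock time.

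Ddit4l, in contrast to Sesn1, peaked around the start of the light phase under both regimens. It was lowest at ZT12 under NRF, and at ZT12 and ZT16 under DRF (group means of 1.45 and 1.47 TPM). Its libraries at ZT12 were at 1.61, 1.16, 1.35 and 1.06 TPM under NRF and at 1.26, 1.5, 1.49 and 1.53 TPM under DRF, and the 2 groups overlapped. At ZT4 they were at 1.74, 2.63, 1.81 and 2.73 TPM under NRF and at 2.12, 2.57, 2.68 and 2.04 TPM under DRF, above every ZT12 library of the same regimen. The highest group mean was 1.73 times the lowest under NRF and 1.62 times under DRF. The fitted peaks were at ZT0.931 (SE 1.27 h, adjusted p = 0.0276) and ZT2.07 (SE 0.747 h, adjusted p = 0.000597), 1.13 h apart (95% interval -1.76 to 4.02 h), so that Ddit4l was phase locked by its fitted shift, with an interval that just crossed 4 h. A difference by clock time was not found (adjusted p = 0.621), whereas by food time the rhythm differed (adjusted p = 1.43e-05). The rhythm under NRF did not pass without ZT12 (adjusted p = 0.555) or without ZT0 (adjusted p = 0.0862), nor without replicate 2 or 4 of every group (adjusted p = 0.241 and 0.113). At a level near 2 TPM, a difference on the log2(TPM + 1) scale understates the change.

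Deptor peaked at nearly opposite times of day under the 2 regimens. Under NRF it was highest at ZT12 (8.25, 6.65, 7.71 and 6.49 TPM) and ZT8 (5.23, 6.97, 7.14 and 7.99 TPM) and lowest at ZT24 (4.46, 4.51, 4.20 and 4.54 TPM). Under DRF it was highest at ZT0, where its 4 libraries at 7.16, 6.76, 7.51 and 7.53 TPM all exceeded the 4 libraries of ZT0 under NRF (4.47, 4.71, 4.94 and 5.27 TPM). The fitted peak was at ZT11.0 under NRF (SE 0.627 h, amplitude 0.28, adjusted p = 2.65e-05) and at ZT23.9 under DRF (SE 1.42 h, amplitude 0.11). The rhythm under DRF did not pass the threshold with the harmonic (adjusted p = 0.0535) and passed it with a level for each ZT (adjusted p = 0.0309), so the difference of 11.1 h between the peaks (SE 1.55 h) is given as a fitted value and Deptor is not called phase inverted. The same harmonic passed with median-of-ratios scaling (adjusted p = 0.0312), without replicate 2 of every group (0.0349), without ZT4 (0.0102) and without ZT8 (0.0434), and also with voom weights, deposited values or a minimum of 5 TPM.

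The Deptor rhythm differed by clock time with the harmonic (adjusted p = 1.97e-06) and with a level for each ZT (adjusted p = 5.72e-05). The amplitude was lower under DRF by 0.17 on the log2 scale (95% interval of DRF minus NRF -0.27 to -0.06). By food time the peaks lay 0.893 h apart, and the rhythm still differed (adjusted p = 0.0368), a call that was not made in 4 of the fits that left out a ZT, namely without ZT8 (0.159), ZT12 (0.216), ZT20 (0.0649) and ZT24 (0.192), nor without replicate 2 (0.315) or 3 (0.147) of every group.

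**Figure D2:**
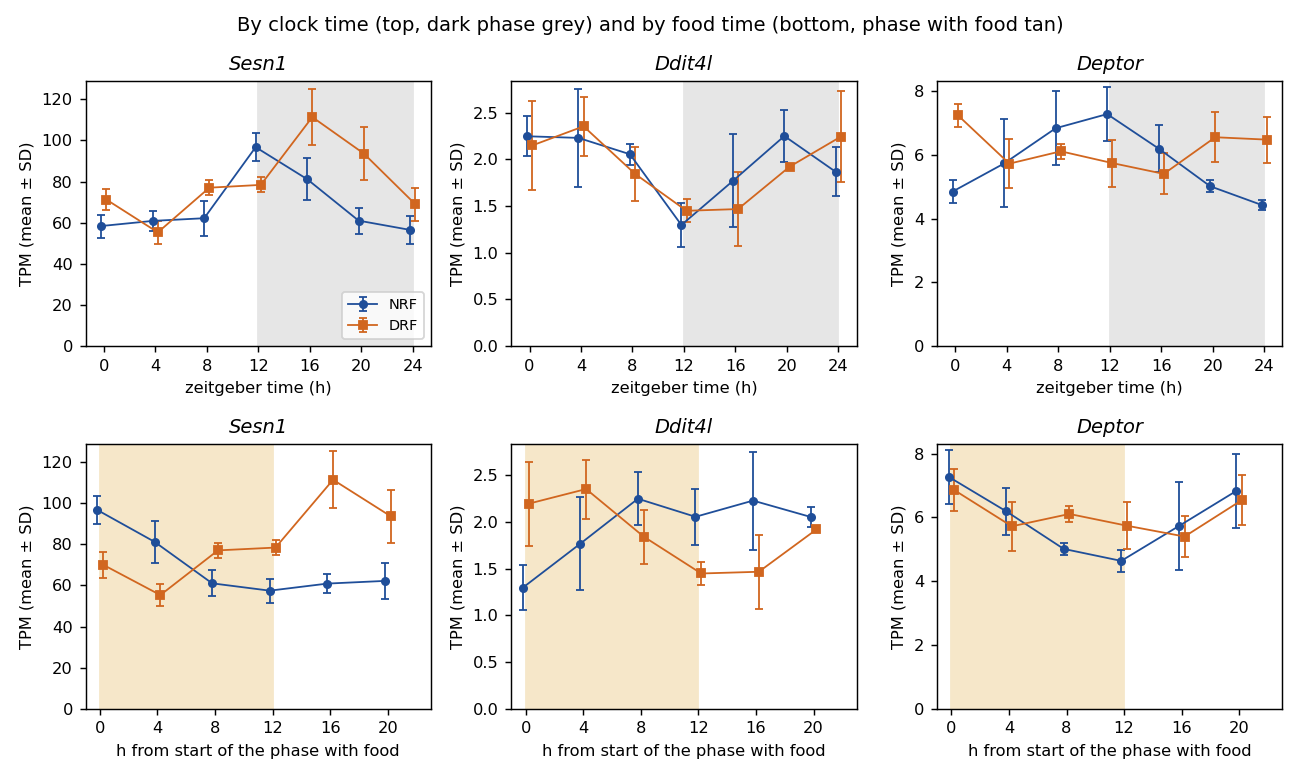
TPM as mean ± SD (vertical axis, from 0) of Sesn1, Ddit4l and Deptor under NRF (circles) and DRF (squares), against zeitgeber time in the upper row (n = 4) and against hours from the start of the phase with food in the lower row (n = 4, or 8 where ZT0 and ZT24 fall together). With limma on all 56 libraries, Ddit4l has called differences at 0 ZTs and 3 food times, Deptor at 3 ZTs and 0 food times, and Sesn1 at 2 ZTs and 6 food times.

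Sesn3 changed little. Its libraries ranged from 3.84 to 6.02 TPM under NRF and from 3.64 to 5.77 TPM under DRF, and the highest group mean exceeded the lowest by a factor of 1.13 under NRF and 1.2 under DRF. Under NRF no rhythm was found (adjusted p = 0.599). Under DRF the amplitude was 0.11 with a peak at ZT23.0 (SE 1.32 h, adjusted p = 0.0400). The difference in rhythm by clock time only just passed (adjusted p = 0.0450). It did not pass in 6 of the 7 fits that left out a ZT, and the lowest and highest of those 6 adjusted p values were 0.0629 without ZT0 and 0.230 without ZT24. The DRF rhythm did not pass without ZT0, ZT8, ZT16, ZT20 or ZT24 (adjusted p from 0.0714 to 0.122). Leaving out a replicate number from every group also removed the difference, for replicates 2, 3 and 4 (adjusted p = 0.0769, 0.327 and 0.0540), and the DRF rhythm, for replicates 1, 2 and 3 (adjusted p = 0.215, 0.0677 and 0.252). With a level for each ZT neither was called (adjusted p = 0.205 for the DRF rhythm and 0.243 for the difference).

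Neither Sesn2 nor Ddit4 passed the harmonic test under either regimen. Sesn2, the sestrin known as the cell's leucine sensor and as a target of ATF4 and p53, ran from 2.67 to 4.92 TPM under NRF and from 2.63 to 5.40 TPM under DRF (adjusted p = 0.195 and 0.358). A difference in its rhythm by food time was not called (adjusted p = 0.214), but was with median-of-ratios scaling (0.0285) and without ZT16 (0.0372). Ddit4 had the widest spread of the 6. Under NRF its libraries at ZT12 were at 77.1, 109, 139 and 146 TPM and at ZT8 at 47.1, 28.6, 38.6 and 104 TPM. Under DRF the libraries at ZT16 were at 192, 49.1, 59.7 and 42.6 TPM and at ZT20 at 29.8, 74.4, 169 and 62.8 TPM, so that replicates of 1 group spanned most of the range of the gene. The harmonic gave adjusted p = 0.358 under NRF and 0.953 under DRF. With a level for each ZT the times differed under NRF (adjusted p = 0.0187) and not under DRF (adjusted p = 0.170), and without ZT12 the harmonic also passed under NRF (adjusted p = 0.0437).

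**Figure D3:**
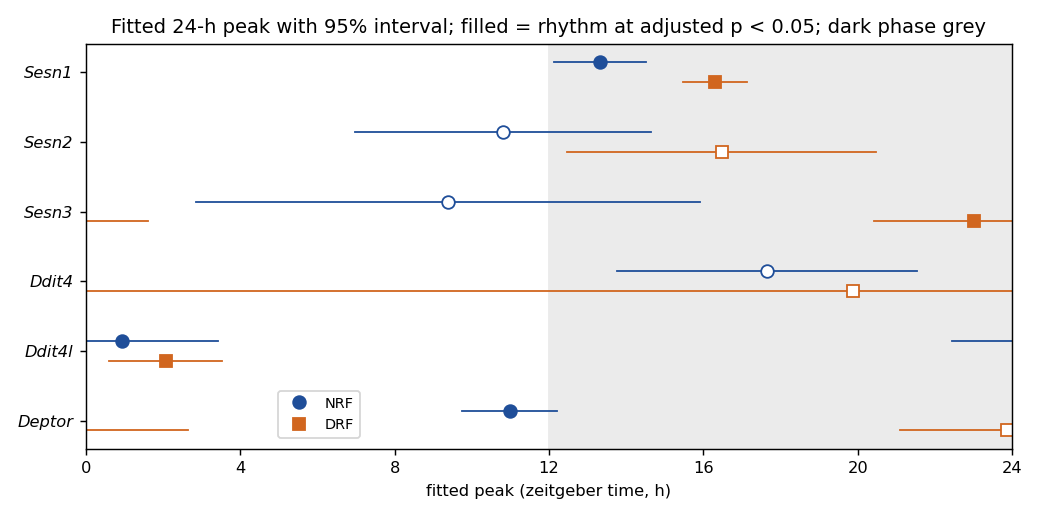
Fitted 24-h peak (horizontal axis, zeitgeber time in hours) of each gene under NRF (circles) and DRF (squares) with its 95% interval, wrapped at ZT24, filled where the rhythm had an adjusted p under 0.05. The peaks of Sesn1 and Ddit4l lie 2.97 and 1.13 h apart and those of Deptor 11.1 h, and the interval of Ddit4 under DRF covers the whole day.

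The second question was whether the level differed between regimens at matched times. Averaged over the 7 ZTs, 1 of the 6 genes differed in mean level (background 28.9%). Sesn1 was higher under DRF, at 79.4 ± 18.7 TPM against 68.1 ± 15.5 TPM (SD, n = 28 each, over all times), a log2 difference of 0.21 (SE 0.04, adjusted p = 8.86e-05), with a higher group mean at 5 of 7 ZTs. Of all genes called in mean level, 399 were higher and 3621 lower under DRF, while with libraries rescaled by the median of ratios these were 1254 and 1559, and Sesn1 was higher in both. Deptor differed by 0.10 (SE 0.04, adjusted p = 0.0554) and by 0.15 after that rescaling, where it was called. The Deptor difference fell to 0.03 without ZT0 and to 0.04 without ZT24, the same clock time 1 day apart. Without ZT12 it was 0.17. The mean differences of Sesn2 (-0.09), Sesn3 (-0.02), Ddit4 (0.11) and Ddit4l (-0.02) did not pass, although Sesn2 did without replicate 4 of every group (-0.11), and the signs of Sesn3 and Ddit4l turned with the rescaling.

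At single ZTs 5 of the 42 differences were called. They were Deptor at ZT0 (1 of 6 members, background 11.5%), Sesn1 at ZT16 (1 of 6, background 6.87%), Sesn1 and Deptor at ZT20 (2 of 6, background 14.8%) and Deptor at ZT24 (1 of 6, background 8.83%), each higher under DRF. No member was called by limma at ZT4 (background 0.446%), ZT8 (0.353%) or ZT12 (7.64%), where 0, 2 and 2 members had an unadjusted p under 0.05 and 0, 1 and 0 were called with voom weights on the recovered reads. Sesn1 was at 111 ± 13.7 TPM at ZT16 under DRF against 81.2 ± 10.2 TPM under NRF (SD, n = 4), a log2 difference of 0.45 (SE 0.10, adjusted p = 0.00498), and at ZT20 at 93.6 ± 13.0 against 61.0 ± 6.38 TPM, a difference of 0.61 (SE 0.10, adjusted p = 0.000103). All 4 libraries of DRF lay above all 4 of NRF at both times. At ZT12 the order was turned, with a log2 difference of -0.30 that did not pass (adjusted p = 0.0608).

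For Deptor the DRF libraries lay above all NRF libraries at ZT0, ZT20 and ZT24. Mean levels of DRF and NRF were 7.24 ± 0.363 against 4.85 ± 0.345 TPM at ZT0 (log2 difference 0.50, SE 0.11, adjusted p = 0.00145), 6.55 ± 0.783 against 5.01 ± 0.194 TPM at ZT20 (0.32, adjusted p = 0.0338) and 6.47 ± 0.721 against 4.43 ± 0.157 TPM at ZT24 (0.46, adjusted p = 0.00472), all SD with n = 4. At ZT12 the DRF level of Deptor was 5.74 ± 0.737 TPM against 7.28 ± 0.844 TPM for NRF, which did not pass (adjusted p = 0.0758). This ZT12 difference was called without DRF ZT12 replicate 2 (log2 difference -0.37, adjusted p = 0.0370) and without NRF ZT4 replicate 1 (adjusted p = 0.0358). The call at ZT20 was not made when DRF ZT20 replicate 3 or 4 or any 1 of the 4 NRF ZT20 libraries was left out (adjusted p from 0.0523 to 0.111, the highest without DRF ZT20 replicate 4, where the difference was 0.26), nor without replicate 2, 3 or 4 of every group (differences 0.34, 0.33 and 0.25) or with no filter on low genes. The calls of Deptor at ZT0 and ZT24 and of Sesn1 at ZT16 and ZT20 were made whichever of the 56 libraries was left out, although Sesn1 at ZT16 (log2 difference 0.42) and Deptor at ZT24 (0.45) were not called without replicate 3 of every group.

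Matched by food time, 9 of 36 differences were called, 6 of them in Sesn1 and 3 in Ddit4l. Called members were 2 of 6 at the start of the phase with food (background 13.0%), 1 of 6 after 4 h (6.40%), 1 of 6 after 8 h (5.49%), 2 of 6 after 12 h, when food was withdrawn (9.82%), 2 of 6 after 16 h (22.7%) and 1 of 6 after 20 h (24.1%). Sesn1 was lower under DRF at the start and after 4 h of food, by 0.46 and 0.54 on the log2 scale (adjusted p = 0.000229 and 0.000296). It was higher under DRF after 8, 12, 16 and 20 h, by 0.34, 0.45, 0.86 and 0.58 (adjusted p = 0.0393, 0.000431, 4.26e-08 and 7.66e-05). The largest of these set 111 ± 13.7 TPM at DRF ZT16 against 60.9 ± 4.73 TPM at NRF ZT4 (SD, n = 4), 4 h after food was withdrawn in both. The call after 8 h was not made without any 1 of the 4 DRF ZT8 libraries or of NRF ZT20 replicates 2, 3 and 4 (adjusted p from 0.0570 to 0.131), nor without replicate 2, 3 or 4 of every group (log2 differences 0.32, 0.32 and 0.32) or with no filter on low genes, and the other 5 were made whichever library was left out.

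Ddit4l was higher under DRF at the start of the phase with food, at 2.19 ± 0.452 TPM (SD, n = 8) against 1.3 ± 0.238 TPM (SD, n = 4), a log2 difference of 0.47 (SE 0.10, adjusted p = 0.00113). After 12 and 16 h it was lower by 0.31 and 0.39 (adjusted p = 0.0391 and 0.0140). The call after 12 h was not made without any 1 of the 4 DRF ZT12 libraries or of replicates 1 and 2 of NRF ZT0 and NRF ZT24 (adjusted p from 0.0501 to 0.141), nor that after 16 h without DRF ZT16 replicate 1, NRF ZT4 replicate 2 or NRF ZT4 replicate 4 (adjusted p 0.0769, 0.0662 and 0.0962). Without 1 replicate number of every group the first was not called for replicates 1, 2 and 3 (log2 differences -0.28, -0.27 and -0.35) and the second for replicates 2 and 4 (-0.30 and -0.34), and the first was not called with voom weights or with no filter either. Deptor had 0 calls by food time with limma on all libraries (2 differences with an unadjusted p under 0.05), and its differences lay between -0.10 and 0.25. Without NRF ZT4 replicate 1, a library outside that comparison, Deptor was called after 12 h (log2 difference 0.25, adjusted p = 0.0327). With voom weights 2 members were called after 12 h.

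**Figure D4:**
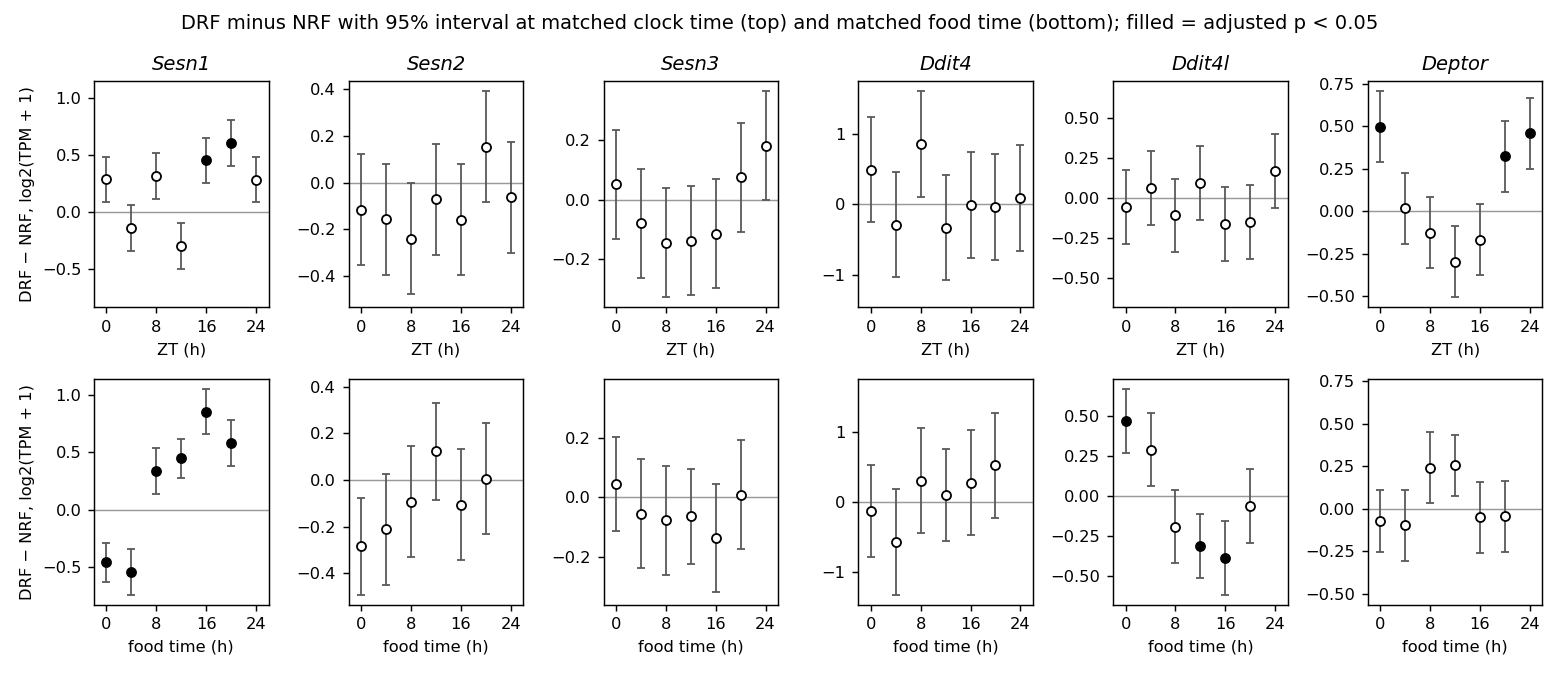
Differences DRF minus NRF on the log2(TPM + 1) scale (vertical axes, scaled per gene) with 95% intervals, at 7 matched zeitgeber times (upper row) and 6 matched food times (lower row), filled where the adjusted p was under 0.05. With limma on all 56 libraries, Sesn1 differs at ZT16 and ZT20 and at all 6 food times, Deptor at ZT0, ZT20 and ZT24 and at 0 food times, and Ddit4l at 0 ZTs and 3 food times.

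A repeat of the same clock time 1 day later gives the scale of these differences. Between ZT24 and ZT0 limma called 0 of 12 differences, 0 at an unadjusted p under 0.05 and 0 with voom, against a background of 0.0576% under NRF and 0.425% under DRF. The largest was Ddit4 under DRF, at 83.1 ± 22.5 TPM at ZT24 and 136 ± 16.4 TPM at ZT0 (SD, n = 4), whose libraries did not overlap (log2 difference -0.74, SE 0.38, adjusted p = 0.436). For Sesn1 the difference was -0.05 under either regimen and for Deptor -0.11 under NRF and -0.14 under DRF.

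The change across the start and the end of feeding was compared within each regimen, in contrasts chosen after the time courses had been seen. After 4 h of food under DRF, Sesn1 and Ddit4 were called (2 of 6, background 5.28%). Ddit4 fell from 109 ± 33.4 TPM (SD, n = 8, ZT0 and ZT24) to 48.0 ± 10.7 TPM at ZT4 (SD, n = 4), a log2 difference of -1.13 (SE 0.33, adjusted p = 0.0362). At ZT4 its libraries were at 36.3, 43.0, 51.8 and 60.9 TPM, against 154, 145, 122 and 121 TPM at ZT0 and 51.0, 101, 84.4 and 96.0 TPM at ZT24, so that 1 library of ZT24 lay within the ZT4 range. Sesn1 fell from 70.1 ± 6.33 to 55.3 ± 5.46 TPM, a difference of -0.34 (SE 0.09, adjusted p = 0.0170). Both calls depended on single libraries. Ddit4 was not called without DRF ZT0 replicates 1 or 2, DRF ZT4 replicates 1, 2 or 3, or DRF ZT24 replicates 2, 3 or 4, each left out alone (adjusted p from 0.0507 to 0.104), and Sesn1 not without DRF ZT4 replicates 2, 3 or 4 (adjusted p from 0.0737 to 0.0771). Ddit4 was also not called without replicate 2, 3 or 4 of every group (log2 differences -1.01, -1.18 and -1.23) or with no filter, and Sesn1 not without replicate 2 or 3 (-0.31 and -0.30). Deptor, uncalled at this step with all libraries, was called without DRF ZT4 replicate 1 (log2 difference -0.31, adjusted p = 0.0396).

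Under NRF the same step, from ZT12 to ZT16, called 0 of the 6 with limma and with voom (background 8.44%), and 2 had an unadjusted p under 0.05. Ddit4 was at 118 ± 31.5 TPM at ZT12 and 73.0 ± 20.7 TPM at ZT16 (SD, n = 4), a log2 difference of -0.69 (95% interval -1.44 to 0.06), and Sesn1 at 96.7 ± 6.84 and 81.2 ± 10.2 TPM, a difference of -0.26 (95% interval -0.46 to -0.06, adjusted p = 0.108). The intervals of the 2 regimens overlapped for both genes, and whether the step differed between regimens was not tested.

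After 4 h of fasting, Sesn1 rose under DRF, from 78.4 ± 3.6 TPM at ZT12 to 111 ± 13.7 TPM at ZT16 (SD, n = 4), a log2 difference of 0.49 (SE 0.10, adjusted p = 0.00361, 1 of 6 members, background 5.92%). All ZT16 libraries lay above all ZT12 libraries, and the call was made whichever library was left out, but not without replicate 2 or 3 of every group (log2 differences 0.49 and 0.46). Under NRF no member was called by limma or with voom at the same step, from ZT0 and ZT24 to ZT4 (background 1.45%, 1 member with an unadjusted p under 0.05), and Sesn1 was at 57.4 ± 5.87 TPM (SD, n = 8) before and 60.9 ± 4.73 TPM (SD, n = 4) after, a difference of 0.09 (95% interval -0.09 to 0.26). Without NRF ZT4 replicate 1, Deptor was called by limma at this step (log2 difference 0.38, adjusted p = 0.0154).

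**Figure D5:**
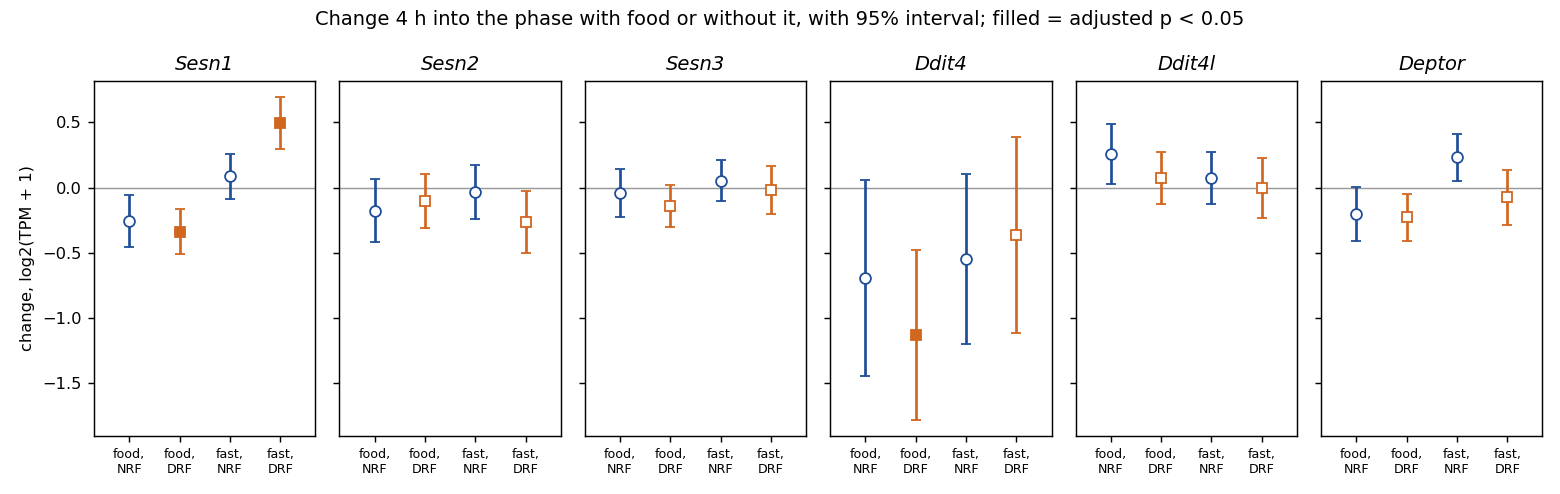
Change on the log2(TPM + 1) scale (vertical axis) with its 95% interval, 4 h into the phase with food (left pair of each panel) or without it (right pair), under NRF (circles) and DRF (squares), filled where the adjusted p was under 0.05. Ddit4 and Sesn1 lie below 0 for both steps into food, with the DRF values called, and the only call 4 h into fasting with all libraries is the rise of Sesn1 under DRF.

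The other genes of the pathway were counted in 9 lists, to be read against the shares of all genes tested, which were 37.2% rhythmic under NRF, 32.2% rhythmic under DRF and 27.5% different by clock time. Of the 27 genes of the amino acid branch on which sestrins act (GATOR1, GATOR2, KICSTOR, Rag, Ragulator and folliculin genes), 10 had a rhythm under NRF and 12 under DRF, with 11 (40.7%) different by clock time, so that the NRF count matched the share over all genes. Rragb, which encodes a Rag GTPase, peaked at ZT7.11 under NRF and ZT23.9 under DRF (adjusted p = 1.08e-08 for the difference). Flcn, which encodes folliculin, an activator of Rag signaling, peaked at ZT19.1 under DRF and differed in rhythm (adjusted p = 0.000277). The median log2 difference in mean level was -0.01 against -0.05 over all genes tested.

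Of the 6 genes of mTORC1 and its assembly (Mtor, Rptor, Mlst8, Akt1s1, Tti1 and Telo2), 1 was rhythmic under NRF and 2 under DRF. With limma 0 differed in rhythm by clock time (0 at an unadjusted p under 0.05) and 0 in mean level (3 at an unadjusted p under 0.05). The median amplitudes of these 6 genes were 0.06 and 0.06, against 0.10 and 0.10 over all genes tested. On the growth factor and stress branch, where Ddit4 and Ddit4l act, 6 of 14 genes had a rhythm under NRF and 4 under DRF, with 4 (28.6%) different by clock time, all near the shares over all genes, while 10 of the 14 differed by food time, against 41.3% of all genes. Among these, Akt1 peaked at ZT9.98 under DRF with an amplitude of 0.23 and differed in rhythm (adjusted p = 7.77e-05), and Rhebl1, a paralog of Rheb, peaked at ZT10.8 under NRF with an amplitude of 0.30 (adjusted p = 0.00148 for the difference).

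Among substrates and regulated factors downstream of mTORC1, a rhythm was found in 8 of 11 tested genes under NRF and in 4 under DRF, with 7 (63.6%) different by clock time, and the DRF count was near the share over all genes. Eif4ebp1, which encodes a translational repressor that mTORC1 inactivates, peaked at ZT10.9 under NRF with an amplitude of 0.26 (adjusted p = 8.83e-06) and had an amplitude of 0.06 under DRF (adjusted p = 0.436, adjusted p of the difference 3.94e-05). Maf1, a repressor of RNA polymerase III that mTORC1 also inactivates, was dual-oscillating and peaked at ZT11.9 and ZT2.41, a shift of -9.53 h (SE 1.49 h, adjusted p of the difference 0.000195).

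Lists of genes that respond to factors known to induce the members were counted as well. Each of these lists also holds the gene or genes that encode the factor, counted among its targets. Of FoxO targets 9 of 12 (75.0%) differed by clock time. Pdk4, the kinase that shuts off pyruvate dehydrogenase, peaked at ZT5.15 and ZT21.5 (adjusted p of the difference 2.83e-10), and Gabarapl1, an autophagy gene, at ZT11.1 and ZT20.1 (adjusted p = 1.80e-05). Of glucocorticoid targets 6 of 10 differed by clock time, among them Klf9, which peaked at ZT11.9 under NRF with an amplitude of 0.45 and had 0.12 under DRF (adjusted p = 7.56e-06), and the clock gene Per1, with amplitudes of 1.27 and 0.22 (adjusted p = 0.00119). Of ATF4 targets 5 of 10 tested differed, with Atf5 at ZT23.2 and ZT8.07 and Vldlr at ZT22.1 under DRF.

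Of p53 targets 4 of 9 tested differed by clock time. Cdkn1a, the inhibitor of cyclin-dependent kinases, peaked at ZT0.421 and ZT21.7, and Ccng1 peaked at ZT20.9 under NRF. Of hypoxia targets 5 of 9 tested differed, among them Egln3, an oxygen-sensing prolyl hydroxylase, at ZT21.4 and ZT13.2, and Bnip3, a mitophagy receptor, at ZT21.5 under DRF. No list was tested against the shares over all genes.

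By food time the rhythm differed in 2 of 6 genes of mTORC1 itself, 10 of 27 of the amino acid branch, 10 of 14 of the growth factor and stress branch, 4 of 11 mTORC1 targets, 5 of 10 ATF4 targets, 4 of 9 p53 targets, 6 of 12 FoxO targets, 7 of 10 glucocorticoid targets and 6 of 9 hypoxia targets, where 41.3% of all genes tested did. In mean level, where 399 of the 13893 genes tested were higher and 3621 lower under DRF, the amino acid branch had 4 higher and 5 lower. The growth factor and stress branch had 0 higher and 2 lower, mTORC1 targets 1 and 5, ATF4 targets 0 and 3, p53 targets 0 and 6, FoxO targets 5 and 0, glucocorticoid targets 2 and 1, and hypoxia targets 1 and 1 by limma. At an unadjusted p under 0.05, in either direction, these 7 lists had 2, 6, 4, 6, 7, 5 and 3 genes in the same order.

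The genes most like each member over the 14 group means of log2(TPM + 1) were taken by Pearson's r among the 13893 genes, as a description. For Sesn1 these were Rora (r = 0.94), a nuclear receptor of the clock, Cth (0.93), the enzyme that makes cysteine from cystathionine, and Rasgef1b (0.90). For Deptor they were Art1 (0.95), Miip (0.94) and Slc2a8 (0.94), a glucose transporter. For Ddit4l they were Clmp (0.89), 2810410L24Rik (0.88) and Ankrd50 (0.88), and for Ddit4 Cutc (0.91), Gm10747 (0.82) and Stk17b (0.79). For Sesn3 they were Crnkl1 (0.92), Fam19a5 (0.90) and Ubqln2 (0.90), and for Sesn2 Snhg10 (0.88), Hjurp (0.88) and Cep192 (0.86). These groups share libraries between genes, and the leading values were picked from among all genes tested.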

How the data were processed

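Heart polyA libraries were made by the authors with NEBNext Ultra reagents and sequenced as paired ends. The submitters' processing notes name HISAT2 2.0.5, featureCounts 1.5.0-p3 and mm10. The deposited values are named TPM by the authors but are of another unit, not linear TPM: each is a library constant multiplied by log2(1 + scaled reads) and divided by exon length. The planned tests assumed linear TPM, so reads were recovered first. With exon lengths from GENCODE M21 (22852 of 22864 identifiers, 96.0% at the annotated length, all 6 members among them), 99.9998% of low values gave whole reads with a tolerance of 0.1, and 3 genes without a usable length were dropped. Linear TPM was recomputed from these reads.

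Tests used limma 3.58.1 (R 4.3.3) on log2(TPM + 1), with eBayes trend and Benjamini-Hochberg adjustment over the 13893 genes whose mean reached 1 TPM, and were checked on simulated data. A 24-h harmonic stood in for MetaCycle and CircaCompare, the tools of the study. Reads recovered for genes summed to 29.3 to 53 M per library, which is not the sequencing depth, and reads carried no molecular identifiers. Groups came from the labels, and 0 columns of values were unused. The members, gene lists and tests were chosen with earlier results of these data known. All members are named, with up to 2 genes per pathway list (those with the smallest adjusted p in the rhythm difference by clock time) and the 3 genes most like each member. Alternatives were a pseudocount of 0.1, no filter, a minimum of 5 TPM, median-of-ratios scaling, deposited values, voom weights, a replicate block, and leaving out replicates, ZTs or libraries. Peak times, amplitudes and their standard errors came from the harmonic by the delta method. Replicate numbers are shared by all groups, but samples of the same number did not deviate together.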

Additional observations from a re-analysis of the deposited data

Results flagged for a closer look

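In 6 of the 84 groups of 4 libraries (6 genes, 14 groups) 1 library lay apart, with a gap to the next that exceeded Dixon's critical share of the range, where chance alone flags about 1 in 20 groups. For Ddit4 under DRF at ZT16, replicate 1 was at 192 TPM and the other 3 libraries at 42.6 to 59.7 TPM. For Ddit4l under DRF, replicate 1 at ZT12 was at 1.26 TPM against 1.49 to 1.53 TPM, and replicate 4 at ZT24 at 2.97 TPM against 1.90 to 2.07 TPM. For Deptor under DRF, replicate 1 at ZT4 was at 6.87 TPM against 5.25 to 5.50 TPM, replicate 2 at ZT12 at 6.84 TPM against 5.34 to 5.42 TPM, and replicate 4 at ZT24 at 7.54 TPM against 5.96 to 6.20 TPM. The called difference of Deptor at ZT24 rests on a group with such a library, and it was called without that library (adjusted p = 0.0243). The Ddit4l difference at the start of the phase with food pools DRF ZT0 and ZT24 and so also holds such a library, and it was called whichever library was left out (adjusted p up to 0.00914). DRF ZT12 replicate 1 was among the libraries without which the Ddit4l difference after 12 h of food time was not called (adjusted p = 0.141).

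A difference between the regimens in the 24-h rhythm by clock time was flagged by its interaction test in Deptor (adjusted p = 1.97e-06), Sesn1 (adjusted p = 0.00606) and Sesn3 (adjusted p = 0.0450). Deptor had the larger amplitude under NRF, Sesn1 a later peak under DRF, and Sesn3 an amplitude of 0.04 under NRF and 0.11 under DRF.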

How the results depend on the processing

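The numbers of members rhythmic under NRF, rhythmic under DRF, different in rhythm by food time, different at matched food time and different between ZT24 and ZT0 stayed within 1.5 times the reported numbers in every alternative run for them. The 3 members with a different rhythm by clock time became 1 without ZT20, and 1 to 3 without 1 replicate. The 1 member with a different mean level became 2 with a minimum of 5 TPM (where only 3 members were tested), median-of-ratios scaling, deposited values or voom, and without ZT4, ZT8, ZT12 or ZT16, and 1 to 2 without 1 replicate. The 5 differences at matched ZT became 8 with median-of-ratios scaling or voom, and 2 to 7 without 1 replicate. The 3 differences at a change of feeding, a comparison added after seeing the data, became 0 to 5 without 1 replicate and 1 to 4 without 1 library. The cause was not tested for any of these. The 2.97 h shift of Sesn1 became 5.24 h without ZT8 and 1.60 h without ZT12, and its amplitude difference of 0.08 became -0.00019 without ZT4 and 0.23 without ZT12. The 1.13 h shift of Ddit4l became 2.73 h without ZT8 and 0.0207 to 2.95 h without 1 replicate, and its amplitude difference of 0.06 became 0.15 without ZT12. Uncalled mean log2 differences turned sign in Sesn3 (-0.0240 reported, 0.0231 with median-of-ratios scaling, -0.0599 to 0.00520 without 1 replicate), in Ddit4 (-0.0117 without ZT8) and in Ddit4l (-0.0204 reported, 0.0158 with median-of-ratios scaling, 0.00330 without ZT16, 0.00116 without ZT20, -0.0640 to 0.0131 without 1 replicate), and in deposited units, which are not log2, they were 0.0190 for Sesn3 and 0.149 for Ddit4l. Genes called over the whole table ranged from 2812 to 6451 for rhythms under NRF (5166 reported), 2296 to 4564 under DRF (4478), 1843 to 4594 for the difference by clock time (3825), 3731 to 6251 by food time (5736) and 2012 to 4900 in mean level (4020).

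With the replicate number as a block, the counts were 3 rhythmic under NRF, 3 under DRF, 2 by clock time (Sesn3 at adjusted p = 0.0525), 3 by food time, 1 in mean level, 6 at matched ZT, 9 at matched food time, 0 between ZT24 and ZT0 and 3 at a change of feeding. The labels do not say that a number marks a shared animal or day, and deviations of samples with the same number had a mean correlation of 0.02, with 92 of 364 pairs over 0.1. Depth limits Ddit4l most, at 51 to 147 reads per library.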
